A study of Arabidopsis thaliana with 75 samples.

Results

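The genes described here encode 10 enzymes of Arabidopsis thaliana that make jasmonate, join it to an amino acid or clear the conjugate. They were chosen by locus identifier, with no measured value in the rule, and are 10 of the 32844 gene loci in the seedling count table. The choice was made with earlier results of these data known. All 10 were also listed in the leaf count files and in the files of uncapped RNA, and all 10 passed the filter on low values in each of these data sets. On the TAIR10 genome, by the authors' count table, LOX2 (AT3G45140) spans 16525245 to 16529352 of chromosome 3 on the plus strand. LOX3 (AT1G17420) spans 5977323 to 5981521 and LOX4 (AT1G72520) 27308513 to 27312756, both on the plus strand of chromosome 1. AOS (AT5G42650) spans 17097564 to 17099595 on the minus strand of chromosome 5. AOC1 (AT3G25760, 9403779 to 9405338) and AOC2 (AT3G25770, 9406669 to 9408071) are neighbouring paralogs on the plus strand of chromosome 3, so reads from stretches they share could be split between them. OPR3 (AT2G06050) spans 2359114 to 2362375 on the minus strand and JAR1 (AT2G46370) 19033586 to 19036683 on the plus strand of chromosome 2. CYP94B3 (AT3G48520) spans 17974853 to 17976774 on the minus strand of chromosome 3, and CYP94C1 (AT2G27690) 11809279 to 11811280 on the plus strand of chromosome 2.

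Jasmonate is a lipid hormone best known in leaves for defence against wounding, insects and necrotrophic fungi, and it acts against salicylate in many responses to bacteria. Plastid lipoxygenases (LOX2, LOX3, LOX4) oxygenate linolenic acid, allene oxide synthase (AOS) and allene oxide cyclases (AOC1, AOC2) turn the product into the cyclopentenone OPDA, and the peroxisomal reductase OPR3 starts its conversion to jasmonic acid. JAR1 joins jasmonic acid to isoleucine to give the active hormone, and the cytochrome P450 enzymes CYP94B3 and CYP94C1 oxidise that conjugate and so lower its activity. Genes of this pathway are themselves switched on by jasmonate.

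The study measured the RNA modification m6A, mRNA and uncapped RNA in plants given a signal of bacterial attack, to ask how m6A takes part in immunity. Seedlings were whole 14-day-old plants kept in liquid medium, either given 1 µM flg22, a peptide of bacterial flagellin, for 4 h or left untreated. The sample titles give the untreated seedlings as 0 h in the assays of uncapped RNA and m6A. In the mRNA assay the titles give no time and the names of the count columns give 4 h, so that time is unclear. By these labels, flg22 and time cannot be told apart in the assays of uncapped RNA and m6A. Leaves came from 4-week-old plants and carry the times 24 or 00 in their titles. The titles and the protocol speak of infiltrated bacteria while the treatment field of the 24 samples speaks of flg22, so these groups are called 24 and 00 here. The plants were mta, a line of the m6A methyltransferase gene MTA whose allele the labels do not describe, 35SALKBH10B, named for the viral 35S promoter and the m6A demethylase ALKBH10B, or the wild type Col-0. Poly(A)-selected mRNA was counted in 3 libraries each of flg22-treated mta, untreated mta, flg22-treated Col-0 and untreated Col-0 seedlings, and in 3 each of mta 24, mta 00, Col-0 24 and Col-0 00 leaves. The labels also name 3 flg22-treated and 3 untreated mRNA libraries of 35SALKBH10B seedlings, which were not analysed here because no count column could be matched to them by name. GMUCT, which sequences transcripts that have lost their cap, was done on 3 seedling libraries each of mta, 35SALKBH10B and Col-0, with flg22 and without. Lists of m6A peaks covered the same 6 seedling groups (3 libraries each, but 2 for untreated Col-0) and the mta 00, Col-0 24 and Col-0 00 leaves (3 each). The number of independent lines or cultures behind these libraries was not given in the sources used here.

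Gene loci held 9442047 to 13222937 counts in the seedling mRNA libraries and 20467621 to 44052628 in the leaf libraries, and the GMUCT libraries held 3107893 to 41465534 recovered reads. The GMUCT level of ALKBH10B was 564 to 685 RPM (reads scaled to the library's total) in flg22-treated and 410 to 469 RPM in untreated 35SALKBH10B, against means of 90.5 RPM in flg22-treated and 37.0 RPM in untreated Col-0. MTA averaged 6.14 RPM in flg22-treated and 9.86 RPM in untreated mta seedlings, against 11.1 RPM in flg22-treated and 21.3 RPM in untreated Col-0 seedlings, and was listed at 0 in every mRNA library. The GMUCT library labelled 35SALKBH10B flg22 replicate 3 goes against its label: 738 genes that rose at least 4-fold in Col-0 mRNA with flg22 had a median level of 0.197 there on the log2(RPM + 1) scale relative to untreated Col-0, against 1.66 and 1.72 in the other two flg22 libraries of the line and 0.0405 to 0.130 in its untreated libraries. In the mRNA data the leaf library mta 00 replicate 1 stood farthest from its group. For many of the changes that either library touches, values without it are given too. The summed level of 4 mesophyll markers was 10662 to 11142 CPM in flg22-treated and 15794 to 17003 CPM in untreated mta seedlings, and 8898 to 10654 CPM in flg22-treated and 16687 to 17932 CPM in untreated Col-0 seedlings, with no marker at 0. In leaves it was 50057 to 59012 CPM in mta 24, 76090 to 94593 CPM in mta 00, 37222 to 50186 CPM in Col-0 24 and 61453 to 74093 CPM in Col-0 00, while 8 root markers summed to at most 0.271 CPM in any leaf library. In seedlings the root markers summed to 84.4 to 91.8 CPM in flg22-treated and 61.0 to 69.1 CPM in untreated mta, but to 34.2 to 39.4 CPM in flg22-treated and 65.7 to 75.1 CPM in untreated Col-0, 3 of the 8 being at 0 in flg22-treated Col-0. The 4 guard cell markers summed to 110.5 CPM in mta 24, 70.2 CPM in mta 00, 87.3 CPM in Col-0 24 and 51.5 CPM in Col-0 00, and the 2 phloem companion cell markers 841 CPM in mta 24, 503 CPM in mta 00, 672 CPM in Col-0 24 and 442 CPM in Col-0 00 (means of 3 libraries). In seedlings the phloem sum was 188 CPM in flg22-treated and 202 CPM in untreated mta, and 115 CPM in flg22-treated and 164 CPM in untreated Col-0. The part of these shifts in the results was not tested, and in such bulk samples fewer cells of a type and less RNA per cell cannot be told apart. The seedling table also counts features on the opposite strand of all members but LOX3 and LOX4. As a percentage of the member's own seedling counts, that over AOS held 97.9%. A feature over both cyclases held 70.7% for AOC1 and 47.8% for AOC2. Those over OPR3 held 63.7% and 31.7%, and those over LOX2 38.1%, 11.1% and 10.9%. For CYP94C1 it was 29.9%, for JAR1 23.5%, and for CYP94B3 19.8% and 18.4%. In leaves each held at most 0.0620%. Their part in the seedling results was not tested.

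mRNA levels of different genes are compared here per kilobase only. Per kilobase of gene span, introns included, untreated Col-0 seedlings held 72.0 CPM of AOC2, 59.9 of AOS, 42.3 of LOX2 and 24.1 of CYP94B3, the other 6 ranging down to 13.3 for CYP94C1. Leaves spread the same genes much more widely, with 4133 CPM per kilobase of LOX2 and 13.5 of CYP94B3 in Col-0 24 leaves, against 75.9 of LOX2 and 0.0981 of CYP94B3 in Col-0 00 leaves.

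**Figure D1:**
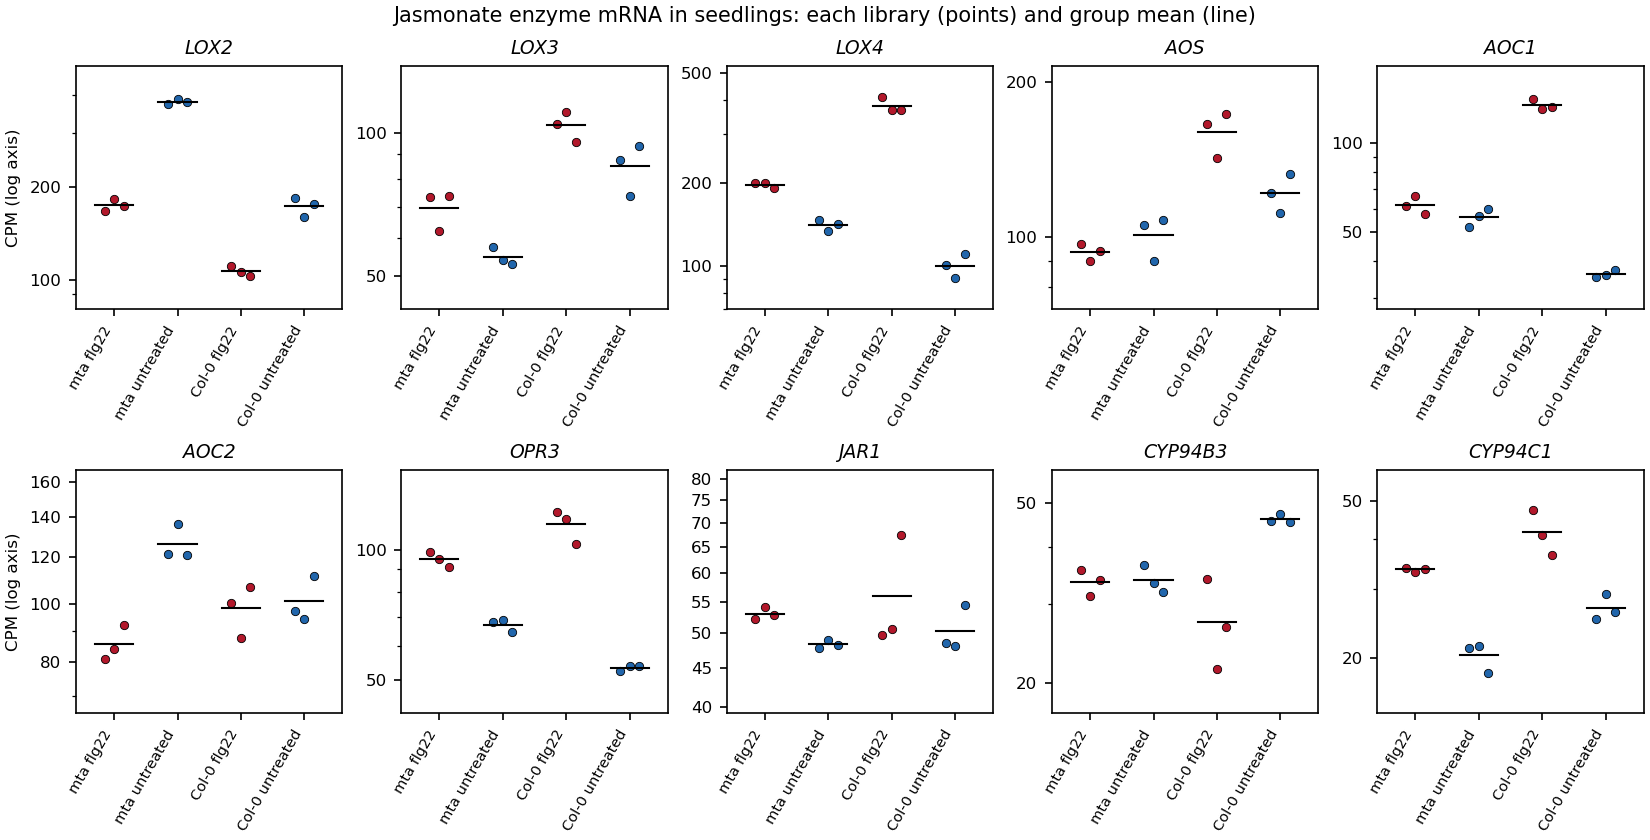
mRNA level of each of the 10 genes in seedlings, in CPM (counts scaled to the library's total) on a log axis, with 1 point per library and a bar at the mean of 3 libraries; flg22-treated groups stand left of untreated ones and mta left of Col-0. LOX4 and AOC1 lie well above their untreated level in flg22-treated Col-0, while in mta LOX4 is less far above it and AOC1 overlaps with it, and LOX2 is lower with flg22 in both.

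With flg22, Col-0 seedlings raised the mRNA of 6 of the 10 enzymes and lowered that of 2, and paralogs and enzymes of the same step did not all move together. The lipoxygenase LOX4, the cyclase AOC1 and the reductase OPR3 had the largest increases, while LOX2, a major lipoxygenase of jasmonate synthesis in wounded leaves, and the hydroxylase CYP94B3 fell. Of the 19887 genes tested, 58.7% passed an adjusted p of 0.05, 27.9% upward and 30.7% downward. The members' median log2 change was 0.34, beside -0.098 over all genes.

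LOX2 mRNA was 111, 106 and 103 CPM in flg22-treated and 184, 161 and 177 CPM in untreated Col-0 seedlings. All treated libraries lay below all untreated ones, a log2 change of -0.71 ± 0.073 (SE, edgeR adjusted p = 1.4e-10). LOX4 was 409, 366 and 366 CPM in flg22-treated against 101, 90.5 and 111 CPM in untreated Col-0. The groups were far apart, and LOX4 changed by 1.92 ± 0.078 (SE, edgeR adjusted p = 2.4e-22), the largest value among the members. Its paralog LOX3 reached 104, 111 and 95.6 CPM in flg22-treated against 87.4, 73.7 and 93.8 CPM in untreated Col-0, a small change of 0.29 ± 0.095 (SE, edgeR adjusted p = 0.0099) that was 0.19 with edgeR adjusted p = 0.12 when untreated Col-0 replicate 2 was left out.

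AOS, which makes the allene oxide, averaged 160.0 ± 16.0 CPM in flg22-treated and 122 ± 10.4 CPM in untreated Col-0 (SD, n = 3 each), and rose by 0.39 ± 0.087 (SE, edgeR adjusted p = 0.00019). AOC1, next in the pathway, was 141, 129.9 and 133 CPM in flg22-treated and 35.3, 35.8 and 37.3 CPM in untreated Col-0, an increase of 1.90 ± 0.093 (SE, edgeR adjusted p = 7.3e-20) with no overlap. Its neighbour AOC2 overlapped between the groups, with 100.3, 87.5 and 107 CPM in flg22-treated and 97.4, 94.3 and 111 CPM in untreated Col-0, and its difference was -0.04 ± 0.09 (SE, edgeR adjusted p = 0.72). OPR3 was 122, 118 and 103 CPM in flg22-treated against 52.6, 54.0 and 53.8 CPM in untreated Col-0, all treated libraries being higher, and rose by 1.10 ± 0.088 (SE, edgeR adjusted p = 1.5e-13).

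JAR1, the conjugating enzyme, was 49.8, 50.7 and 67.3 CPM in flg22-treated and 48.6, 48.1 and 54.4 CPM in untreated Col-0; the libraries overlapped and the difference of 0.15 ± 0.11 (SE, edgeR adjusted p = 0.23) did not pass. The 2 enzymes that oxidise the conjugate went opposite ways. CYP94B3 was 34.0, 21.5 and 26.6 CPM in flg22-treated and 45.8, 47.5 and 45.5 CPM in untreated Col-0 and fell, with a log2 change of -0.75 ± 0.13 (SE, edgeR adjusted p = 4.5e-06). CYP94C1 was 47.5, 40.9 and 36.4 CPM in flg22-treated and 25.1, 29.0 and 26.1 CPM in untreated Col-0 and rose by 0.64 ± 0.12 (SE, edgeR adjusted p = 3.1e-05).

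In mta seedlings flg22 moved 4 members up and 2 down, against 22% of all genes up and 20.2% down (42.2% in either direction). LOX4 was 199, 200.4 and 192 CPM in flg22-treated and 147, 134 and 143 CPM in untreated mta, a rise of 0.48 ± 0.076 (SE, edgeR adjusted p = 2.4e-06). AOC1 was 61.1, 66.4 and 57.6 CPM in flg22-treated and 52.1, 56.6 and 59.6 CPM in untreated mta; these overlapped, at 0.14 ± 0.092 (SE, edgeR adjusted p = 0.24). OPR3, at 98.9, 95.05 and 91.3 CPM in flg22-treated and 68.0, 68.8 and 64.5 CPM in untreated mta, rose by 0.50 ± 0.087 (SE, edgeR adjusted p = 9.3e-06). LOX2 was 168, 183 and 174 CPM in flg22-treated and 375, 387 and 381 CPM in untreated mta. Its log2 change of -1.12 ± 0.072 (SE, edgeR adjusted p = 8.3e-16) was larger in size than in Col-0.

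AOC2 fell in mta, to 85.7 ± 5.82 CPM with flg22 against 126 ± 8.79 CPM without (SD, n = 3 each), a log2 change of -0.56 ± 0.09 (SE, edgeR adjusted p = 3e-06). LOX3 (0.34 ± 0.098 SE, edgeR adjusted p = 0.0045) and CYP94C1 (0.72 ± 0.13 SE, edgeR adjusted p = 1.4e-05) rose in mta as in Col-0. AOS, JAR1 and CYP94B3 did not pass in mta, with log2 changes of -0.11 ± 0.089, 0.13 ± 0.11 and -0.014 ± 0.13 (SE). CYP94B3 was 35.6, 31.1 and 33.9 CPM in flg22-treated and 36.5, 33.4 and 31.8 CPM in untreated mta, so the fall seen in Col-0 had no counterpart there.

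The flg22 response itself differed between mta and Col-0 for 7 of the 10 members, 6 of them with a lower log2 response in mta, where 19.1% of all genes differed, 6.91% with a higher and 12.2% with a lower response. AOC1 (-1.76 ± 0.13 SE, edgeR adjusted p = 1.4e-13) and LOX4 (-1.44 ± 0.11 SE, edgeR adjusted p = 2.3e-13) differed most, and OPR3 by -0.59 ± 0.12 (SE, edgeR adjusted p = 0.00036). The differences of AOC2 (-0.52 ± 0.13), AOS (-0.51 ± 0.12) and LOX2 (-0.42 ± 0.10) were smaller, with edgeR adjusted p values of 0.0025, 0.0026 and 0.0024. CYP94B3 had the opposite sign, 0.74 ± 0.18 (SE, edgeR adjusted p = 0.0026). The differences of LOX3 (0.058 ± 0.14), JAR1 (-0.017 ± 0.15) and CYP94C1 (0.08 ± 0.18, all SE) did not pass.

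Without treatment mta seedlings already differed from Col-0 in 9 of 10 members, 5 higher and 4 lower, where 33.1% of all genes passed, 18.1% higher and 15% lower. LOX2 showed the widest gap, 381 ± 6.10 CPM in untreated mta against 174 ± 11.9 CPM in untreated Col-0 (SD, n = 3 each), a log2 difference of 1.13 ± 0.071 (SE, edgeR adjusted p = 1.3e-15). AOC1 (0.64 ± 0.094), LOX4 (0.49 ± 0.078), OPR3 (0.33 ± 0.089) and AOC2 (0.32 ± 0.089) were also higher in mta, with edgeR adjusted p values of 1.1e-06, 3.5e-06, 0.0037 and 0.0047. LOX3 (-0.63 ± 0.097), CYP94B3 (-0.45 ± 0.13), CYP94C1 (-0.39 ± 0.13) and AOS (-0.27 ± 0.088, all SE) were lower, with edgeR adjusted p values of 2.3e-06, 0.005, 0.016 and 0.017. AOS was lost without untreated Col-0 replicate 3 or mta replicate 2 (edgeR adjusted p = 0.13 and 0.16), and CYP94C1 without untreated Col-0 replicate 2 or mta replicate 3 (edgeR adjusted p = 0.095 and 0.11). JAR1 was 47.9, 49.0 and 48.2 CPM in untreated mta and 48.6, 48.1 and 54.4 CPM in untreated Col-0.

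After flg22, 6 members were lower and 1 higher in mta than in Col-0, beside 19.9% and 18.1% of all genes (38.0% in either direction). AOC1 (-1.13 ± 0.09), LOX4 (-0.95 ± 0.076) and OPR3 (-0.27 ± 0.086, SE), all higher in untreated mta, were lower in flg22-treated mta, with edgeR adjusted p values of 1.5e-12, 1.5e-12 and 0.013. AOS (-0.77 ± 0.089), LOX3 (-0.57 ± 0.096) and CYP94C1 (-0.31 ± 0.12, SE) were lower in mta under both conditions, here with edgeR adjusted p values of 7.3e-09, 9.6e-06 and 0.042. LOX2 stayed higher in mta, 175 ± 7.52 CPM against 107 ± 4.13 CPM in flg22-treated Col-0 (SD, n = 3 each), by 0.71 ± 0.074 (SE, edgeR adjusted p = 6.1e-10). These comparisons share libraries with the ones within each line. CYP94C1 missed the threshold when any 1 of flg22-treated Col-0 replicate 1 or the 3 flg22-treated mta libraries was left out (edgeR adjusted p up to 0.16), and OPR3 when flg22-treated mta replicate 3 was (edgeR adjusted p = 0.057).

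**Figure D2:**
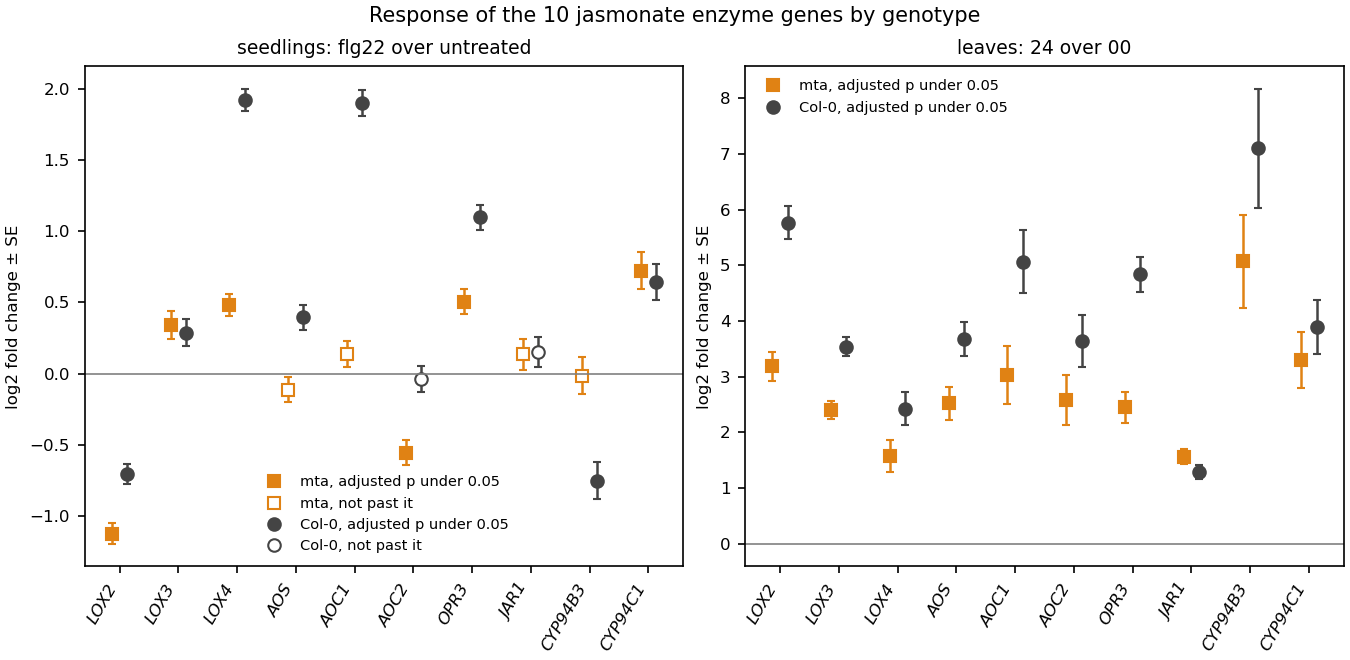
log2 fold change of each gene with its SE, flg22 over untreated seedlings and 24 over 00 leaves, from the fit over all genes with 3 libraries a group; mta is drawn as orange squares left of Col-0 in grey circles, and open symbols did not pass an adjusted p of 0.05. In seedlings the members lie between -1.12 and 1.92, and in leaves all 20 values lie above 0.

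Leaves gave a uniform picture: all 10 members were higher at 24 than at 00 in mta, and all 10 in Col-0. Of the 18824 genes tested in leaves, 30.9% rose and 28.1% fell in mta (59.0% in all), and 35.6% rose and 32.7% fell in Col-0 (68.3% in all). The members' median log2 change was 2.55 in mta, beside 0.0091 over all genes, and 3.79 in Col-0, beside 0.019. Leaves at 00 were a separate time point and the labels do not say whether they were infiltrated, so time and treatment cannot be told apart. Without mta 00 replicate 1 all 10 members also rose in mta, beside 32.7% of all genes up and 28.3% down (61.0% in all), and each had a larger log2 change than with that library. It was then 3.46 ± 0.26 for LOX2, 3.92 ± 0.41 for AOC1, 3.23 ± 0.39 for AOC2, 7.30 ± 0.64 for CYP94B3 and 4.22 ± 0.42 for CYP94C1 (SE, edgeR). For LOX3 it was 2.52 ± 0.17, for LOX4 2.11 ± 0.17, for AOS 2.89 ± 0.27, for OPR3 2.91 ± 0.19 and for JAR1 1.74 ± 0.11 (SE, edgeR).

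LOX2, the most abundant member per kilobase at 24 in both lines, was 9086, 11360.2 and 12334 CPM in mta 24 and 1601, 795 and 1197 CPM in mta 00 leaves. In Col-0 it was 17457, 14990.5 and 18493 CPM at 24 and 349.9, 324 and 261 CPM at 00. Its log2 change was 3.19 ± 0.26 (SE, edgeR adjusted p = 2.5e-06) in mta and 5.77 ± 0.30 (SE, edgeR adjusted p = 3.5e-08) in Col-0, opposite in direction to its fall with flg22 in seedlings. LOX3 was 214, 218 and 218 CPM in mta 24 against 47.2, 35.6 and 40.0 CPM in mta 00. Col-0 leaves held 248, 231 and 268 CPM at 24 against 16.7, 25.7 and 21.7 CPM at 00. It changed by 2.40 ± 0.16 (SE, edgeR adjusted p = 5.8e-07) in mta and by 3.54 ± 0.17 (SE, edgeR adjusted p = 2.5e-08) in Col-0. LOX4 was 83.0, 74.8 and 73.2 CPM in mta 24 and 41.7, 17.4 and 18.3 CPM in mta 00. In Col-0 it was 124, 107 and 117 CPM at 24 and 16.8, 26.3 and 21.6 CPM at 00. Its changes of 1.58 ± 0.29 (SE, edgeR adjusted p = 0.0007) in mta and 2.43 ± 0.30 (SE, edgeR adjusted p = 2e-05) in Col-0 were the smallest among the lipoxygenases.

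AOS was 1226, 2245 and 1772 CPM in mta 24 and 444, 216 and 254 CPM in mta 00. The Col-0 values were 2701, 2297 and 2989.8 CPM at 24 and 229.9, 226 and 168 CPM at 00. The log2 changes were 2.52 ± 0.30 (SE, edgeR adjusted p = 3.1e-05) in mta and 3.68 ± 0.31 (SE, edgeR adjusted p = 1.2e-06) in Col-0. AOC1, which had the steeper rise of the cyclases, was 398, 458 and 359 CPM in mta 24 and 94.9, 17.3 and 36.1 CPM in mta 00. Col-0 had 554, 271 and 377 CPM at 24 and 13.7, 14.2 and 8.02 CPM at 00. AOC2 was 890.2, 1112 and 912 CPM in mta 24 and 279, 67.9 and 139 CPM in mta 00. In Col-0 leaves it was 1006, 657 and 859.9 CPM at 24 and 95.1, 63.9 and 42.4 CPM at 00. Both cyclases were separated between 24 and 00 in each line, AOC1 by 3.04 ± 0.52 in mta and 5.07 ± 0.57 in Col-0 and AOC2 by 2.58 ± 0.44 in mta and 3.65 ± 0.46 in Col-0 (log2, SE, edgeR adjusted p 0.00043, 1.1e-05, 0.00045 and 2.8e-05). OPR3 was 272, 359 and 332 CPM in mta 24 and 90.4, 37.7 and 47.8 CPM in mta 00. Col-0 leaves held 555, 433 and 539 CPM at 24 and 18.0, 19.9 and 15.3 CPM at 00. Its log2 change was 2.45 ± 0.28 (SE, edgeR adjusted p = 2.4e-05) in mta and 4.84 ± 0.31 (SE, edgeR adjusted p = 1.5e-07) in Col-0.

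JAR1 had the smallest change in both lines. It was 134, 133 and 139.9 CPM in mta 24 and 56.8, 38.0 and 43.3 CPM in mta 00. In Col-0 it was 90.7, 93.2 and 93.1 CPM at 24 and 41.6, 36.4 and 35.4 CPM at 00. Its log2 change was 1.56 ± 0.13 (SE, edgeR adjusted p = 3.5e-06) in mta and 1.29 ± 0.13 (SE, edgeR adjusted p = 5.6e-06) in Col-0. CYP94B3 was almost undetected in Col-0 00 leaves, with 8, 10 and 3 counts or 0.183, 0.303 and 0.0795 CPM, and was 25.4, 40.0 and 12.2 CPM in Col-0 24. In mta it was 118, 110.1 and 101 CPM at 24 and 8.53, 0.194 and 1.21 CPM at 00. Its fitted log2 changes, 5.07 ± 0.83 (SE, edgeR adjusted p = 0.00033) in mta and 7.10 ± 1.06 (SE, edgeR adjusted p = 0.0001) in Col-0, rest on those few counts and, in mta, on mta 00 replicate 1, without which the mta value was 7.30 ± 0.64 (SE). CYP94C1 was 27.2, 30.4 and 30.1 CPM in mta 24 and 5.86, 1.36 and 1.77 CPM in mta 00. The Col-0 values were 56.3, 42.0 and 55.9 CPM at 24 and 1.63, 5.51 and 3.34 CPM at 00. It rose by 3.30 ± 0.50 (SE, edgeR adjusted p = 0.00018) in mta and 3.89 ± 0.49 (SE, edgeR adjusted p = 2.6e-05) in Col-0.

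**Figure D3:**
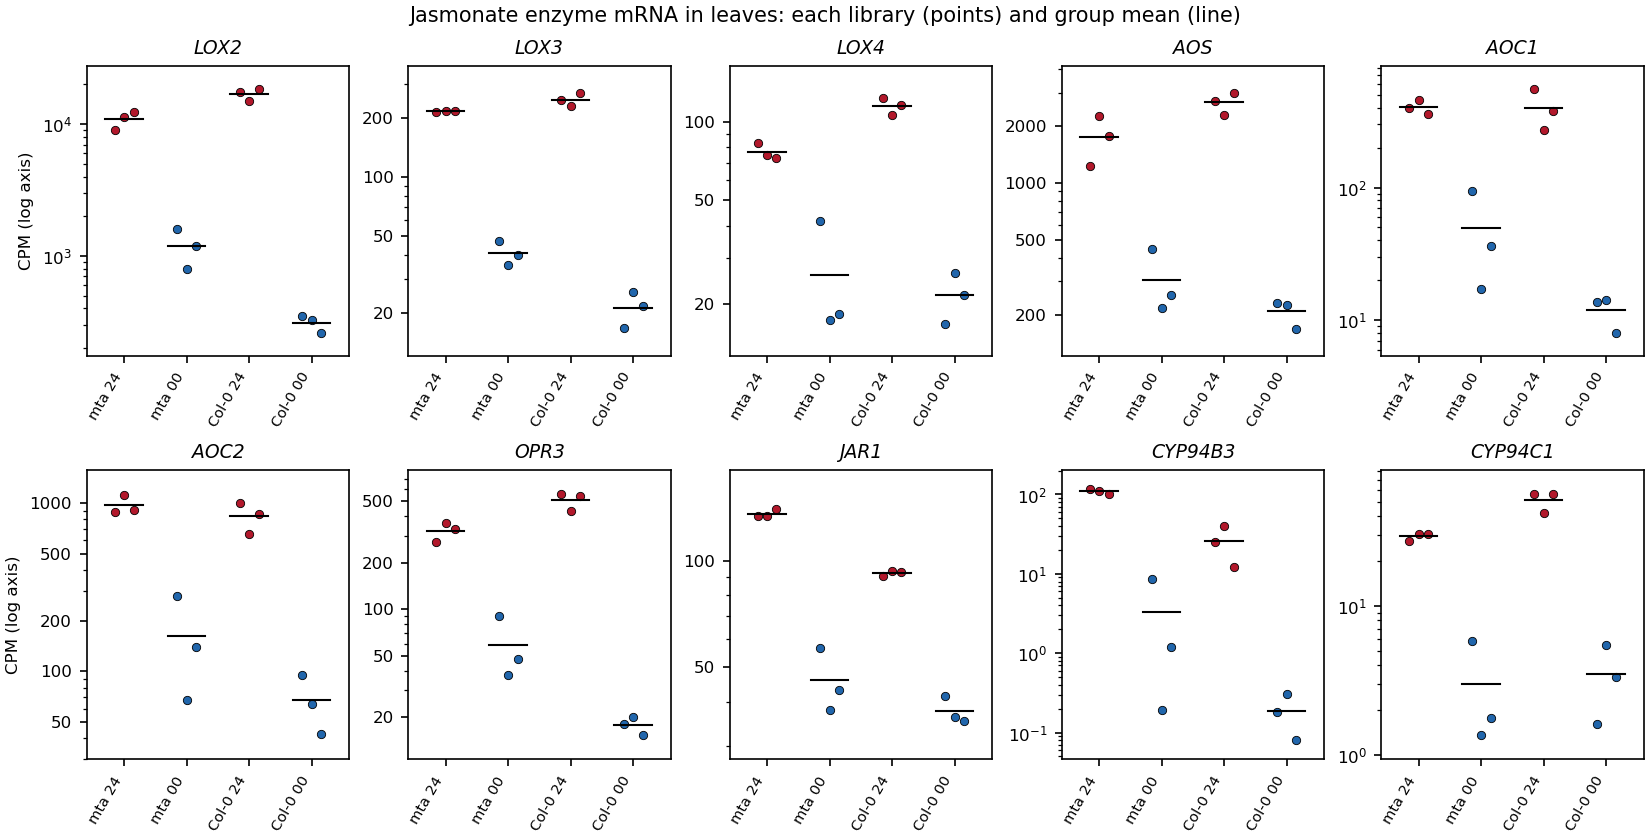
mRNA level of each of the 10 genes in leaves, in CPM on a log axis, with 1 point per library and a bar at the mean of 3 libraries; mta stands left of Col-0 and 24 left of 00. Every gene is higher at 24 than at 00 in both lines with no overlap, and 1 of the mta 00 points (replicate 1) lies above the other two of its group for all 10 genes.

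At 00, 6 members were higher in mta than in Col-0 and none passed as lower (28.7% of all genes passed, 15.5% higher and 13.3% lower). These were LOX2 (1.94 ± 0.25), AOC1 (2.05 ± 0.51), OPR3 (1.72 ± 0.27), LOX3 (0.94 ± 0.15), AOC2 (1.27 ± 0.43) and CYP94B3 (4.11 ± 1.15, log2, SE), with edgeR adjusted p values of 0.00049, 0.012, 0.0014, 0.0016, 0.043 and 0.021. Without mta 00 replicate 1, where 25.2% of all genes passed, the differences of LOX2 (1.67 ± 0.22 SE, edgeR adjusted p = 0.00068), OPR3 (1.27 ± 0.17 SE, edgeR adjusted p = 0.00075), AOC1 (1.16 ± 0.35 SE, edgeR adjusted p = 0.032) and LOX3 (0.82 ± 0.16 SE, edgeR adjusted p = 0.0039) still passed. Those of AOC2 (0.62 ± 0.34 SE, edgeR adjusted p = 0.2) and CYP94B3 (1.89 ± 0.96 SE, edgeR adjusted p = 0.17) did not. AOC2 and CYP94B3 were also lost when either of 2 Col-0 00 libraries was left out (edgeR adjusted p = 0.063 to 0.13), and AOC2 without mta 00 replicate 3 (edgeR adjusted p = 0.062).

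At 24 the lines differed in JAR1 and CYP94B3, both higher in mta, beside 14.5% of all genes higher and 14.2% lower (28.7% in all). JAR1 averaged 136 ± 3.72 CPM in mta 24 against 92.3 ± 1.45 CPM in Col-0 24 (SD, n = 3 each), a log2 difference of 0.55 ± 0.13 (SE, edgeR adjusted p = 0.0092). CYP94B3 averaged 109.6 ± 8.37 CPM in mta 24 against 25.9 ± 13.9 CPM in Col-0 24 (SD, n = 3 each). Its difference of 2.08 ± 0.70 (SE, edgeR adjusted p = 0.045) lay close to the threshold. It was lost with DESeq2 (adjusted p = 0.103) and passed in 1 of 6 fits that left out a library. LOX2, LOX3, LOX4, AOS, OPR3 and CYP94C1 were lower in every mta 24 library than in any Col-0 24 library, and none of them passed. How many of all genes were separated in this way was not counted. LOX2, AOS and OPR3 stood at -0.64 ± 0.24, -0.61 ± 0.28 and -0.66 ± 0.26 (log2, SE, edgeR adjusted p = 0.069, 0.13 and 0.081). DESeq2 called LOX2 (adjusted p = 0.023) and OPR3 (adjusted p = 0.048) lower in mta 24, so that 1 member was higher and 2 were lower.

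The log2 change at 24 was reduced in mta, relative to Col-0, for LOX2 (-2.58 ± 0.35 SE, edgeR adjusted p = 0.0021), OPR3 (-2.39 ± 0.38 SE, edgeR adjusted p = 0.0045) and LOX3 (-1.14 ± 0.21 SE, edgeR adjusted p = 0.0095), where 4.97% of all genes had a smaller and 4.77% a larger log2 change (9.74% in all). The same 3 passed without mta 00 replicate 1, where 9.59% of all genes passed, at -2.31 ± 0.30 (SE, edgeR adjusted p = 0.0014) for LOX2, -1.93 ± 0.23 (SE, edgeR adjusted p = 0.0009) for OPR3 and -1.03 ± 0.21 (SE, edgeR adjusted p = 0.012) for LOX3. They also passed with the replicate number as a block, which raised the count over all genes to 2899, against 1833 without it. The differences of AOC1 (-2.03 ± 0.69), AOS (-1.16 ± 0.40) and CYP94B3 (-2.03 ± 1.41, SE) did not pass, with edgeR adjusted p values of 0.087, 0.089 and 0.39. Without mta 00 replicate 1 they were -1.14 ± 0.46, -0.78 ± 0.32 and 0.19 ± 1.197 (SE), a change of sign for CYP94B3, and none of these passed. DESeq2 called AOC1 (adjusted p = 0.021) and AOS (adjusted p = 0.031) smaller in mta.

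A list of 34 other genes of jasmonate synthesis, transport and turnover was read beside the members; it was drawn up with earlier results of these data known. In seedlings 30 of the 34 were tested. With flg22, 13 rose and 3 fell in mta, and 19 rose and 5 fell in Col-0, with median log2 changes of 0.24 in mta and 0.31 in Col-0, beside -0.025 and -0.098 over all genes. LOX1, a lipoxygenase of a different oxylipin branch, was 938, 914 and 948 CPM in flg22-treated and 295, 273 and 284 CPM in untreated mta, and 369.6, 429 and 337 CPM in flg22-treated and 61.8, 57.9 and 56.6 CPM in untreated Col-0. It rose by 1.72 ± 0.073 (SE, edgeR adjusted p = 4e-21) in mta and 2.69 ± 0.078 (SE, edgeR adjusted p = 5.6e-27) in Col-0, more than any member in either line. ABCG16, a transporter of jasmonates, rose by 1.49 ± 0.23 (SE, edgeR adjusted p = 9.9e-07) in mta and 3.73 ± 0.24 (SE, edgeR adjusted p = 3.9e-16) in Col-0, and ST2A, which sulfonates hydroxyjasmonate, by 1.41 ± 0.12 (SE, edgeR adjusted p = 1.1e-12) in mta. HPL1 fell in Col-0, with a log2 change of -1.67 ± 0.66 (SE, edgeR adjusted p = 0.03), at 1.52 CPM or less in every Col-0 library.

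Untreated mta was higher than untreated Col-0 in 18 of these 30 and lower in 2 (median log2 difference 0.42, beside 0.023 over all genes). LOX1 (2.27 ± 0.078), HPL1 (1.48 ± 0.51) and the jasmonate oxidase JOX3 (1.36 ± 0.13, SE) differed most, with edgeR adjusted p values of 1.9e-23, 0.024 and 5.2e-11. After flg22, 11 were higher and 7 lower in mta, beside 18.1% and 19.9% of all genes (median 0.20, beside 0.03 over all genes). These 18 were led by HPL1 (2.50 ± 0.64), JOX4 (1.73 ± 0.094) and JOX3 (1.45 ± 0.13, SE, edgeR adjusted p = 0.0019, 6.7e-17 and 1.8e-11). The flg22 response was larger in mta for 2 and smaller for 9, beside 6.91% and 12.2% of all genes (median -0.073, beside 0.023 over all genes). LOX1 was among the smaller at -0.97 ± 0.10 (SE, edgeR adjusted p = 1.8e-09).

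In leaves 32 of the 34 were tested. Of these, 24 rose and 4 fell in mta at 24, beside 30.9% and 28.1% of all genes. In Col-0, 22 rose and 8 fell, beside 35.6% and 32.7%. The median log2 changes of the 32 were 1.71 in mta and 2.06 in Col-0. JOX3, JOX4 and ST2A, all enzymes that clear jasmonate, had the largest changes from levels near 0. JOX3 was 765, 876 and 727 CPM in mta 24 and 11.4, 0.116 and 1.77 CPM in mta 00. Col-0 had 949.6, 580.1 and 714 CPM at 24 and 0.0229, 0.0606 and 0.0265 CPM at 00. ST2A was 1069, 1238 and 1066 CPM in mta 24 and 5.43, 0.426 and 1.29 CPM in mta 00. In Col-0 leaves it was 1362, 645 and 899.8 CPM at 24 and 0.596, 0.121 and 0.344 CPM at 00. JOX4 was 425, 458 and 341 CPM in mta 24 and 7.18, 0.0775 and 2.17 CPM in mta 00. Col-0 leaves held 254, 172 and 116 CPM at 24 and 0.0917, 0.273 and 0.0795 CPM at 00. At 00, 16 were higher and 3 lower in mta, among them the cyclase AOC3 with 22.01, 1.51 and 10.4 CPM in mta 00 against 0.504, 0.667 and 0.397 CPM in Col-0 00, and the oxidase JOX2 with 104, 5.58 and 21.9 CPM in mta 00 against 2.25, 3.55 and 2.12 CPM in Col-0 00. Like the members, these were highest in mta 00 replicate 1. At 24, 9 were higher and 7 lower in mta. OPR2, a reductase related to OPR3, was 16.3, 11.9 and 10.7 CPM in mta 24 against 1.99, 3.01 and 2.22 CPM in Col-0 24, a difference of 2.42 ± 0.23 (SE, edgeR adjusted p = 8.9e-05), while JOX1 and ABCG16 were below 3 CPM in every library of this comparison. The change at 24 was larger in mta for 4 and smaller for 9. The median log2 differences were 0.51 at 00, 0.20 at 24 and -0.39 in the change, beside 0.02, 0.0031 and -0.029 over all genes. Of all genes, 15.5% were higher and 13.3% lower in mta at 00, and 14.5% and 14.2% at 24. The change was larger in mta for 4.77% of all genes and smaller for 4.97%. Without mta 00 replicate 1, 25 rose and 4 fell in mta at 24, beside 32.7% and 28.3% of all genes. At 00, 11 were then higher and 3 lower in mta, beside 12.7% and 12.5%. The change was then larger in mta for 5 and smaller for 8, beside 5.34% and 4.25%. JOX3 then changed by 9.72 ± 0.63, JOX4 by 8.51 ± 0.74 and ST2A by 10.36 ± 0.58 in mta (log2, SE).

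GMUCT showed the members among the uncapped transcripts of seedlings, at levels set by both the amount of RNA and its decay. By the labels the untreated libraries were 0 h and the flg22-treated ones 4 h, so changes named for flg22 include time. These RPM values were not rescaled between libraries, and the median log2 change over all genes with flg22 was -0.20 in mta, -0.096 in 35SALKBH10B and -0.48 in Col-0. Differences between lines shifted by 0.19 for mta and 0.24 for 35SALKBH10B after flg22, and by -0.05 for mta and -0.13 for 35SALKBH10B without it. Changes below are on the log2(RPM + 1) scale and were tested with limma over 19277 genes. For the members, fits on all libraries are followed by the distance from the median gene of that comparison.

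**Figure D4:**
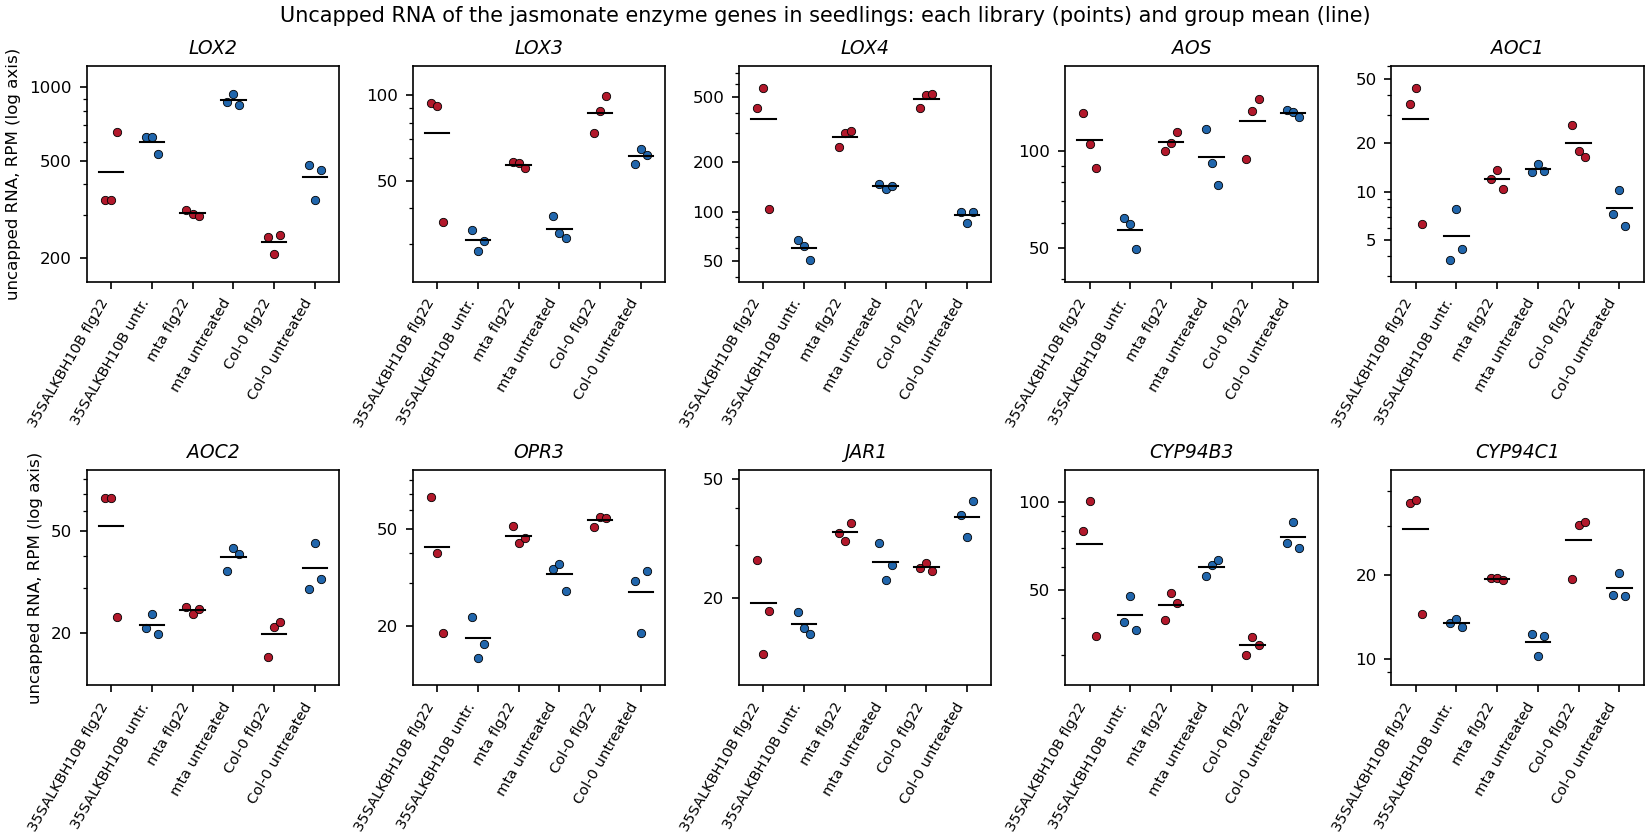
Uncapped RNA of each of the 10 genes in seedlings, in RPM on a log axis, with 1 point per library and a bar at the mean of 3 libraries; flg22 stands left of untreated, and Col-0 comes last. The library labelled 35SALKBH10B flg22 replicate 3 lies apart from the other two of its group for LOX2, LOX3, LOX4, AOC1, AOC2, CYP94B3 and CYP94C1.

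In Col-0, flg22 raised the uncapped RNA of LOX4, AOC1 and OPR3 and lowered that of LOX2, AOC2 and CYP94B3, beside 10.3% of all genes up and 40.1% down (50.4% in all). With median-of-ratios scaling, which matches the libraries' typical gene, 4140 genes rose and 3649 fell, against 1981 and 7728 here. LOX4 was 424, 512 and 522 RPM in flg22-treated and 100.03, 84.9 and 99.3 RPM in untreated Col-0, up by 2.34 ± 0.40 (SE, limma adjusted p = 0.00014) or 2.82 from the median gene. AOC1 was 25.9, 17.9 and 16.4 RPM in flg22-treated and 7.33, 10.3 and 6.16 RPM in untreated Col-0, up by 1.24 ± 0.46 (SE, limma adjusted p = 0.031) or 1.72 from the median. OPR3 rose by 0.99 ± 0.33 (SE, limma adjusted p = 0.017), or 1.47 from the median. These 3 genes also had the largest increases in mRNA.

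LOX2 was 245, 207 and 249 RPM in flg22-treated and 479, 347 and 458 RPM in untreated Col-0, a log2 change of -0.86 ± 0.23 (SE, limma adjusted p = 0.0048) but -0.38 from the median. AOC2 (-0.82 ± 0.30 SE, limma adjusted p = 0.032, -0.34 from the median) and CYP94B3 (-1.21 ± 0.28 SE, limma adjusted p = 0.0017, -0.73 from the median) also fell. The falls of LOX2, AOC2 and CYP94B3 no longer passed with median-of-ratios scaling or with edgeR on the recovered reads, where LOX3 (1.04) and CYP94C1 (1.06) passed as rises instead. AOC1 and AOC2 each passed in 2 of 6 fits that left out a library.

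In mta, 1 member passed, LOX2, beside 6.03% of all genes up and 15.8% down (21.8% in all). Median-of-ratios scaling gave 2025 up and 1846 down, against 1163 and 3048, and then LOX3 (0.96) and CYP94C1 (0.91) passed as rises too. LOX2 was 315, 303 and 297 RPM in flg22-treated and 871, 943 and 844 RPM in untreated mta, a change of -1.54 ± 0.23 (SE, limma adjusted p = 0.00044) or -1.34 from the median. LOX4 was 246, 301 and 311 RPM in flg22-treated and 146, 138 and 143 RPM in untreated mta; the groups did not overlap, at 0.99 ± 0.40 (SE, limma adjusted p = 0.078) or 1.19 from the median. AOC1, at 12.1, 13.7 and 10.4 RPM in flg22-treated and 13.3, 14.8 and 13.5 RPM in untreated mta, differed by -0.19 ± 0.46 (SE, limma adjusted p = 0.79) or 0.0047 from the median.

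No member's flg22 response in uncapped RNA differed between mta and Col-0 by limma, where 1.57% of all genes passed (303, as 198 higher and 105 lower; 79 and 214 with median-of-ratios scaling). The largest differences were those of AOC1 (-1.43 ± 0.65 SE, limma adjusted p = 0.24) and LOX4 (-1.35 ± 0.56 SE, limma adjusted p = 0.2), or -1.68 and -1.60 from the median. At an unadjusted limma p under 0.05, 3 of the 10 passed, but the share of all genes at that threshold was not counted. With edgeR on the recovered reads 0 members were called. Between untreated lines 1 member, LOX2, passed, beside 1.95% of all genes higher and 3.47% in either direction (376 higher and 293 lower in mta; 466 and 183 with median-of-ratios scaling). It was 871, 943 and 844 RPM in untreated mta and 479, 347 and 458 RPM in untreated Col-0, a difference of 1.06 ± 0.23 (SE, limma adjusted p = 0.016), or 1.11 from the median, and passed in 2 of 6 fits that left out a library. After flg22 none of the 10 passed by limma, beside 2.64% of all genes (450 higher and 59 lower, or 261 and 233 with median-of-ratios scaling). Of the 10, 1 had an unadjusted limma p under 0.05, again without a count over all genes, and edgeR on the recovered reads called 0.

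In 35SALKBH10B, flg22 raised the uncapped RNA of 7 members, and none passed as lower, beside 9.45% of all genes up and 10% down (19.5% in all). edgeR on the recovered reads gave 2672 up and 1324 down, against 1822 and 1936. LOX4 was 425, 566 and 104 RPM in flg22-treated and 67.6, 61.8 and 50.7 RPM in untreated 35SALKBH10B, up by 2.28 ± 0.40 (SE, limma adjusted p = 0.0035) or 2.37 from the median. AOC1 was 34.9, 44.3 and 6.29 RPM in flg22-treated and 3.76, 7.85 and 4.42 RPM in untreated 35SALKBH10B, up by 1.90 ± 0.46 (SE, limma adjusted p = 0.012) or 1.99 from the median. AOC2, which fell in Col-0, was 67.2, 67.4 and 23.1 RPM in flg22-treated and 20.8, 23.6 and 19.8 RPM in untreated 35SALKBH10B, up by 1.11 ± 0.30 (SE, limma adjusted p = 0.02) or 1.21 from the median. LOX3 (1.11 ± 0.27), OPR3 (1.04 ± 0.33), CYP94C1 (0.95 ± 0.27) and AOS (0.90 ± 0.21, SE) rose too, with limma adjusted p values of 0.013, 0.034, 0.024 and 0.011. These 4 lay 1.21, 1.14, 1.05 and 0.99 from the median. In each of these triplets the third flg22 value is from the library that goes against its label.

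Without that library 8 members rose and 1 fell, beside 16.2% of all genes up and 26.3% down (42.5% in all). LOX4 then changed by 3.02 ± 0.19 (SE, limma adjusted p = 1.8e-08), AOC1 by 2.72 ± 0.27 (SE, limma adjusted p = 1.3e-06) and AOC2 by 1.61 ± 0.20 (SE, limma adjusted p = 1.1e-05). CYP94B3 rose by 1.12 ± 0.19 (SE, limma adjusted p = 0.00016) and LOX2 fell, with a change of -0.78 ± 0.18 (SE, limma adjusted p = 0.0024). Leaving out flg22 replicate 1 of this line instead left 1 member called, beside 509 of 19210 genes. Leaving out flg22 replicate 2 left 2 members, beside 578 of 19191 genes, against 3758 genes called with all libraries.

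The flg22 response in uncapped RNA was higher in 35SALKBH10B than in Col-0 for AOC2, CYP94B3 and AOS, beside 12.1% of all genes higher and 2.5% lower (14.6% in all). Median-of-ratios scaling gave 792 higher and 1170 lower, against 2328 and 481. The difference was 1.93 ± 0.43 (SE, limma adjusted p = 0.0074) for AOC2, 1.88 ± 0.39 (SE, limma adjusted p = 0.0052) for CYP94B3 and 1.003 ± 0.30 (SE, limma adjusted p = 0.034) for AOS, or 1.56, 1.52 and 0.64 from the median. None of the 3 passed with median-of-ratios scaling, and AOS passed in 6 of 12 fits that left out a library. Without the library that goes against its label, 6 members passed as higher, AOC2 at 2.43 ± 0.27 (SE, limma adjusted p = 3.6e-05) and CYP94B3 at 2.33 ± 0.25 (SE, limma adjusted p = 2.9e-05), with AOC1 (1.48), AOS (1.14), LOX3 (1.07) and CYP94C1 (0.86), beside 14.6% of all genes higher and 3.87% lower (18.5% in all).

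After flg22, 35SALKBH10B held more uncapped RNA than Col-0 of AOC2 (1.23 ± 0.30 SE, limma adjusted p = 0.0057), CYP94B3 (1.01 ± 0.28 SE, limma adjusted p = 0.012) and LOX2 (0.88 ± 0.23 SE, limma adjusted p = 0.0085), or 0.997, 0.77 and 0.64 from the median, beside 20.2% of all genes higher and 8.2% lower (28.4% in all). Median-of-ratios scaling gave 2488 higher and 2906 lower, against 3894 and 1580. LOX2 (0.58) then passed as higher and JAR1 (-0.72, limma adjusted p = 0.013) as lower, while AOC2 (0.96, limma adjusted p = 0.05004) and CYP94B3 (0.72, limma adjusted p = 0.11) did not pass. Without the library that goes against its label AOC2 (1.73), CYP94B3 (1.45), AOC1 (0.96) and LOX2 (0.57) passed, beside 17.3% of all genes higher and 8.54% lower (25.9% in all). Without treatment the line held less than Col-0 of AOS (-1.19 ± 0.21 SE, limma adjusted p = 0.0024), JAR1 (-1.14 ± 0.22 SE, limma adjusted p = 0.0039), LOX3 (-0.97 ± 0.27 SE, limma adjusted p = 0.028) and CYP94B3 (-0.88 ± 0.28 SE, limma adjusted p = 0.047), or -1.06, -1.01, -0.83 and -0.74 from the median, beside 2.94% of all genes higher and 8.99% lower (11.9% in all). Median-of-ratios scaling gave 1193 higher and 971 lower, against 566 and 1733. LOX3 and CYP94B3 passed in none of the 6 fits that left out a library, nor with median-of-ratios scaling. With that scaling LOX2 (0.65, limma adjusted p = 0.038) passed as higher, as it did with edgeR on the recovered reads (0.65, adjusted p = 0.041).

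Of the other pathway genes, 31 were tested in GMUCT. With flg22, 4 rose and 1 fell in mta, 10 rose and none passed as lower in 35SALKBH10B, and 5 rose and 5 fell in Col-0, led by ABCG16 in mta (1.73 ± 0.31 SE, limma adjusted p = 0.0014), OPR1 in 35SALKBH10B (2.33 ± 0.46 SE, limma adjusted p = 0.0057) and ABCG16 in Col-0 (2.63 ± 0.31 SE, limma adjusted p = 6.1e-06). Their median log2 changes were 0.051 in mta, 0.45 in 35SALKBH10B and 0.11 in Col-0, beside the medians of all genes given above. JOX3 was higher in untreated mta (1.86 ± 0.24 SE, limma adjusted p = 0.00053) and in untreated 35SALKBH10B (1.52 ± 0.24 SE, limma adjusted p = 0.0013) than in untreated Col-0, and JOX3 (2.86 ± 0.24 SE, limma adjusted p = 7.5e-07) and JOX4 (2.63 ± 0.24 SE, limma adjusted p = 1.5e-06) had the largest differences between flg22-treated 35SALKBH10B and Col-0. Without the library that goes against its label, 14 rose and none passed as lower in 35SALKBH10B with flg22, beside 16.2% and 26.3% of all genes. The median was 0.57, and OPR1 changed by 3.23 ± 0.20 (SE). JOX3 and JOX4 then stood 3.21 ± 0.18 and 2.76 ± 0.25 (SE) above Col-0 after flg22.

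When uncapped RNA was set against mRNA in the same groups, no member passed in mta by limma, where 0.293% of 17380 genes passed, and 1 in Col-0, where 1.0% passed. The untreated groups were 0 h for uncapped RNA by the titles and 4 h for mRNA by the names of the count columns only. The part of time was not tested. LOX4 differed by 0.73 ± 0.18 (SE, limma adjusted p = 0.087) in uncapped over mRNA with flg22 in mta and by 0.81 ± 0.18 (SE, limma adjusted p = 0.024) in Col-0. The Col-0 value missed the threshold with the replicate number as a block (adjusted p = 0.051) and passed in 6 of 12 fits that left out a library. LOX3 stood at 0.61 ± 0.19 in mta and 0.57 ± 0.19 in Col-0 (SE), and all other members lay between -0.40 and 0.50 without passing. In mta 4 members had an unadjusted limma p under 0.05, a threshold for which the share of all genes was not counted.

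The authors' deposited table of log2 uncapped over total RNA, with 1 value per group, put the cyclases low and LOX2 and CYP94B3 high in each of the 6 groups. In the authors' deposited table AOC1 lay between the 4.6 and 12.4 percentiles of all genes over the 6 groups, AOC2 between 13.4 and 24.6, CYP94B3 between 68.0 and 76.3 and LOX2 between 70.2 and 86.3. The lowest AOC1 and CYP94B3 percentiles and the highest LOX2 percentile were those of flg22-treated 35SALKBH10B. That group holds the GMUCT library that goes against its label, and the mRNA counts of this line were not analysed here. LOX4 was at percentile 76.9 in flg22-treated and 56.3 in untreated mta, and at 83.8 in flg22-treated and 42.5 in untreated Col-0, in the authors' deposited table.

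m6A peaks, called by the authors with MACS2 in each library, are regions where RNA fragments bound by an m6A antibody pile up. A peak was given to a member when its summit, the highest point, lay within the gene's span. In seedlings 10 members had a summit in every flg22-treated and 8 in every untreated mta library, 9 in every flg22-treated and 7 in every untreated 35SALKBH10B library, and 9 in every flg22-treated and 7 in every untreated Col-0 library. Of all genes tested for mRNA, 37.5% had one in every library of flg22-treated and 47.2% of untreated mta, 41.6% of flg22-treated and 42.5% of untreated 35SALKBH10B, and 42.1% of flg22-treated and 48.1% of untreated Col-0. Almost every summit, at least 99.2% in each library, fell in a gene of the strand opposite to the one written in the peak list, and this held for all summits in the members.

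The members with a summit numbered 10, 10 and 10 in flg22-treated and 8, 8 and 10 in untreated mta libraries, 9, 9 and 9 in flg22-treated and 8, 8 and 7 in untreated 35SALKBH10B, and 10, 9 and 9 in flg22-treated and 7 and 7 in untreated Col-0. The difference with flg22 was 1.33 in mta (exact two-sided permutation p = 0.4), 1.33 in 35SALKBH10B (p = 0.1, exact permutation) and 2.33 in Col-0 (p = 0.1, exact permutation), where 0.1 is the smallest p that 3 libraries against 3, or 3 against 2, can give. Over 9 such comparisons the adjusted values were 0.6, 0.45 and 0.45. Between lines, mta exceeded Col-0 by 1.67 members without flg22 and by 0.667 with it, and 35SALKBH10B by 0.667 without and by -0.333 with it, with exact permutation p of 0.3, 0.4, 0.4 and 1, adjusted to 0.6, 0.6, 0.6 and 1.

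**Figure D5:**
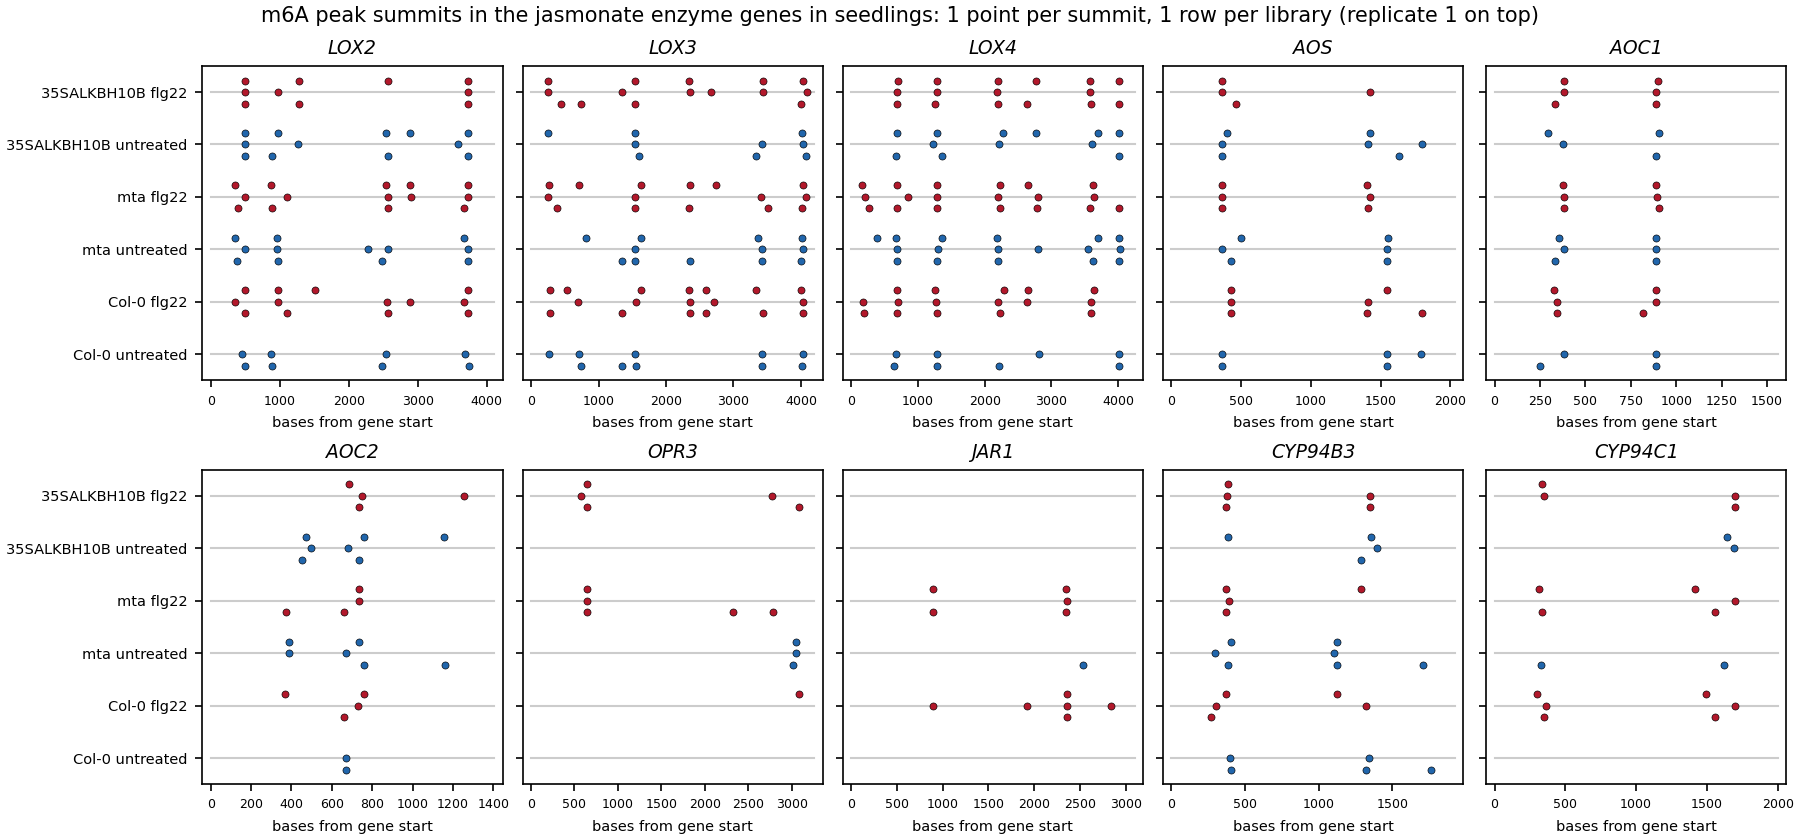
Position of each m6A peak summit in the 10 genes in seedlings, in bases from the gene's start, with 1 row of points per library (replicate 1 on top) and 1 point per summit, flg22 (red) above untreated (blue) and Col-0 last. Summits near the start of LOX2, AOS and AOC1 recur in all groups, and those near the start of CYP94B3 in all but untreated 35SALKBH10B. Those of JAR1 appear with flg22 in mta and Col-0, apart from 1 in untreated mta, and in no 35SALKBH10B library.

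Several sites recurred in all groups. LOX2 had a summit 350 to 497 bases and another 3579 to 3741 bases from its start in every seedling library. LOX3 at 3998 to 4095 bases, LOX4 at 1224 to 1366, AOS at 362 to 497 and AOC2 at 661 to 760 likewise had one in every seedling library. AOC1 had summits at 252 to 383 and at 819 to 904 bases in every library but those of untreated 35SALKBH10B, where each was found in 2 of 3.

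Sites found with flg22 and not without it, in 1 line or more, included those in JAR1, OPR3, CYP94C1, LOX3 and LOX4. In JAR1 a summit 2345 to 2357 bases from the start was found in 3 of 3 flg22-treated and 0 of 3 untreated mta libraries, in 0 of 3 and 0 of 3 35SALKBH10B libraries, and in 3 of 3 flg22-treated and 0 of 2 untreated Col-0 libraries. The authors' fold enrichment of that peak was 2.99, 4.14 and 2.78 in flg22-treated mta and 4.09, 3.49 and 4.61 in flg22-treated Col-0. JAR1 mRNA was 53.1 ± 0.969 CPM in flg22-treated and 48.4 ± 0.556 CPM in untreated mta, and 55.9 ± 9.88 CPM in flg22-treated and 50.4 ± 3.52 CPM in untreated Col-0 (SD, n = 3 each), without a called change. In OPR3 a summit at 579 to 650 bases was found in 3 of 3 flg22-treated and 0 of 3 untreated libraries of mta and of 35SALKBH10B, and in no Col-0 library. OPR3 mRNA rose in mta and in Col-0. A later OPR3 site, at 3020 to 3089 bases, was found in 0 of 3 flg22-treated and 3 of 3 untreated mta, 1 of 3 flg22-treated and 0 of 3 untreated 35SALKBH10B, and 1 of 3 flg22-treated and 0 of 2 untreated Col-0 libraries.

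CYP94C1 had a summit at 297 to 364 bases in 2 of 3 flg22-treated and 1 of 3 untreated mta, 2 of 3 and 0 of 3 35SALKBH10B, and 3 of 3 flg22-treated and 0 of 2 untreated Col-0 libraries. Its second site, at 1415 to 1700 bases, was found in 3 of 3 and 1 of 3 mta, 2 of 3 and 2 of 3 35SALKBH10B, and 3 of 3 and 0 of 2 Col-0 libraries, in the same order. Its mRNA rose in mta and in Col-0. In CYP94B3 the authors' fold enrichment at 266 to 407 bases was 6.51, 6.25 and 5.72 in flg22-treated and 3.75, 6.01 and 4.16 in untreated mta, and 6.14, 8.45 and 12.6 in flg22-treated 35SALKBH10B, against 3.41 in the 1 untreated library of that line with the peak. In Col-0 it was 5.02 to 6.16 in flg22-treated and 3.07 to 3.18 in untreated libraries. A CYP94B3 site at 1106 to 1127 bases was found in 0 of 3 flg22-treated and 3 of 3 untreated mta and 1 of 3 flg22-treated Col-0 libraries, and in none of the other groups. A LOX3 summit at 2341 to 2360 bases was found in 2 of 3 flg22-treated and 1 of 3 untreated mta, 2 of 3 flg22-treated and 0 of 3 untreated 35SALKBH10B, and 3 of 3 flg22-treated and 0 of 2 untreated Col-0 libraries. Another, at 2595 to 2741 bases, was found in 1 of 3 flg22-treated and 0 of 3 untreated mta, 1 of 3 flg22-treated and 0 of 3 untreated 35SALKBH10B, and 3 of 3 flg22-treated and 0 of 2 untreated Col-0 libraries. A LOX4 summit at 3550 to 3700 bases was found in 3 of 3 flg22-treated and 3 of 3 untreated mta, 3 of 3 flg22-treated and 2 of 3 untreated 35SALKBH10B, and 3 of 3 flg22-treated and 0 of 2 untreated Col-0 libraries. Whether a peak is called depends on the RNA available, and the reads behind these lists are unknown here, so the part of RNA level in these differences was not tested.

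The share of the members' seedling summits that lay in the last 20% of the gene's length was below that of all genes in each of the 6 groups. It was 16.9% of 83 summits in flg22-treated and 30.6% of 72 in untreated mta, 26.1% of 69 and 28.1% of 57 in 35SALKBH10B, and 17.1% of 82 and 23.8% of 42 in Col-0. Over all genes tested these shares were 33.9% and 37.2% in mta, 44.5% and 45.4% in 35SALKBH10B, and 41.6% and 47.9% in Col-0, in the same order. Summits of 1 gene in several libraries are not independent, and these shares were not tested. A member with a summit had a median of 2 summits per library (3 in untreated Col-0), against 1 over all genes. The members' median gene length was 2565 bases, against 2395 for all genes tested. The longest members, LOX2, LOX3 and LOX4 (4108, 4199 and 4244 bases), held 13, 18 and 16 of the 82 summits in flg22-treated Col-0. In untreated Col-0 they held 8, 10 and 8 of the 42. The part of gene length was not tested.

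The leaf lists, whose largest p lay just under 0.01, placed summits in 4, 7 and 5 members in the mta 00 libraries, 0, 3 and 4 in Col-0 24 and 2, 1 and 7 in Col-0 00. The largest q was 0.64 or more in each leaf list, against under 0.01 in each seedling list. Leaf and seedling counts of summits are therefore not on like terms. In mta 00, 9 members had a summit in at least 1 library and 2 in every library, beside 53.0% and 25.7% of all genes. In Col-0 24 these numbers were 4 and 0 members, beside 59.2% and 38.3%, and in Col-0 00 they were 8 and 0, beside 58.2% and 35.5%. The difference was -1 between Col-0 24 and Col-0 00 (exact permutation p = 0.8, adjusted 0.9) and 2 between mta 00 and Col-0 00 (exact permutation p = 0.5, adjusted 0.643), and replicates of Col-0 00 differed among themselves by more than either.

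Across the 8 mRNA groups the genes whose pattern was most like that of a member were ranked by the root mean square difference of group-mean log2 CPM, centred within each tissue, over 17812 genes. Among the members the closest pair was LOX3 and AOS, at 0.20. Outside them LOX2 was nearest to CORI3 (0.26), AT3G28220 (0.28) and CRK6 (0.35). The nearest to AOS were OPCL1 (0.12), AT4G29110 (0.17) and AT3G16565 (0.18). CYP94B3 had EARLI1 (0.25), AT3G04000 (0.27) and LTP2 (0.36) nearest to it.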

How the data were processed

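The authors deposited whole-number counts per feature for seedlings, as a featureCounts table per the file headers, and per gene for leaves, as htseq files. From 62925 seedling features the 32844 gene loci were kept, and 12 count columns whose names match no sample here were not used. The deposited GMUCT values are RPM, per the labels, with no count of reads given; all values came back as whole reads within 0.01. The authors' deposited tables of uncapped over total RNA are log2 values, 1 per group. The peak lists give, per the file headers, a fold (ratio) enrichment and −log10 p and q values for each peak, called per library. STAR, MACS2 and TAIR10 are named in the submitters' processing notes.

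Counts were tested with edgeR 4.0.16 (TMM scaling, filterByExpr, quasi-likelihood) over all gene loci, with Benjamini-Hochberg adjustment and a threshold of 0.05, and printed as TMM-scaled CPM. SE is the absolute log2 fold change divided by the square root of F. GMUCT was tested with limma 3.58.1 on log2(RPM + 1), which understates the change of low genes, for genes at 1 RPM or more in 3 libraries; uncapped RNA relative to mRNA was tested as an interaction in limma on the same kind of scale. The number of members with an m6A summit was compared by exact permutation. R 4.3.3, Python 3.11.15 and DESeq2 1.42.0 were also used, and the fits were tested on simulated data. Precision is that of 3 libraries a group, and where nothing says that these came from separate cultures or plants, p-values measure only the spread between these libraries.

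The members and the pathway and marker lists were chosen with earlier results of these data known. Named are all 10 members, up to 3 pathway genes per comparison with the largest change that passed and did not overlap, and the 3 genes most like LOX2, AOS and CYP94B3. Other pathway genes named were chosen after their values were seen. Alternatives were another scaling, no filter on low values, DESeq2, another pseudocount, the replicate number as a block, each library left out, stricter peaks and, added after the data were seen, edgeR on the recovered GMUCT reads. The replicate numbers come from the titles. In leaves same-numbered libraries deviated together, all 3 correlations being over 0.1, for mta 24 with Col-0 24 (0.411, 0.223 and 0.258), mta 24 with mta 00 (0.366, 0.311 and 0.159) and mta 00 with Col-0 24 (0.573, 0.377 and 0.114); no seedling or GMUCT comparison met this. In the leaf files 0.0585% to 0.118% of reads had no feature, 4.23% to 4.93% were ambiguous and 3.71% to 12.7% were not unique, and these were left out of library sizes.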

Additional observations from a re-analysis of the deposited data

Results flagged for a closer look

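The values here are responses that differed between lines by a test of the difference itself, and no explanation was weighed. In seedlings the flg22 response in mta minus that in Col-0 was -0.418 for LOX2, -1.44 for LOX4, -0.506 for AOS, -1.76 for AOC1, -0.515 for AOC2, -0.593 for OPR3 and 0.737 for CYP94B3 (log2, edgeR). In leaves the change at 24 in mta minus that in Col-0 was -2.58 for LOX2, -1.14 for LOX3 and -2.39 for OPR3 (log2, edgeR). In uncapped RNA the flg22 response in 35SALKBH10B minus that in Col-0 was 1.003 for AOS, 1.93 for AOC2 and 1.88 for CYP94B3 (log2(RPM + 1), limma), values that include the library that goes against its label.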

How the results depend on the processing

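Of 910 values of single members under the alternatives that keep all libraries, 838 kept their direction and side of the threshold, 24 changed sign without passing in either fit, 25 no longer passed and 23 newly passed. None that passed changed sign. With 1 library left out, 1481 of 1620 kept both, 43 changed sign without passing, 80 no longer passed and 16 newly passed. The number of members called was within 1.5 times its value except as follows. The leaf difference between lines called 5 with DESeq2, against 3. In GMUCT, flg22 in mta called 3 with median-of-ratios scaling and 4 with edgeR on the recovered reads, an alternative chosen after seeing the data, against 1. The difference between 35SALKBH10B and Col-0 called 0 with median-of-ratios scaling, against 3. Uncapped relative to mRNA in mta called 1 with no filter on low values, against 0. The cause of these shifts was not tested.

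The replicate block, with the replicate number as a factor, called 0 members in uncapped relative to mRNA in Col-0, against 1. In GMUCT it brought JAR1 in Col-0 past the threshold (-0.54, limma adjusted p = 0.044). It changed no member's call in seedling or leaf mRNA.

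With each library left out in turn, the members called in seedlings numbered 6 in mta and 7 to 8 in Col-0 with flg22, 8 to 9 between untreated and 5 to 8 between flg22-treated lines, and 7 in the difference. In leaves they numbered 10 in each line, 4 to 7 at 00, 1 to 2 at 24 and 3 to 5 in the difference. In GMUCT they numbered 1 in mta, 1 to 9 in 35SALKBH10B (509 to 8175 over all genes) and 4 to 6 in Col-0 with flg22. Between untreated and between flg22-treated mta and Col-0 they numbered 0 to 1 and 0, between 35SALKBH10B and Col-0 2 and 3 to 5, and in the differences 0 for mta and 2 to 6 for 35SALKBH10B. Uncapped relative to mRNA gave 0 in mta and 0 to 1 in Col-0. AOS and CYP94C1 between untreated seedlings, and CYP94C1 between flg22-treated ones, were lost in some of these fits.

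The extra members with an m6A summit ranged over 1 to 2 in mta, 1 to 1.5 in 35SALKBH10B and 2 to 2.5 in Col-0 with flg22. They ranged over 1 to 2 and 0.5 to 1 for mta against Col-0 without and with flg22, over 0.5 to 1 and -0.5 to 0 for 35SALKBH10B against Col-0, over 0.833 to 3.83 for mta 00 against Col-0 00, and over -2.17 to 0.833, a change of sign, for Col-0 24 against Col-0 00. Peaks at q of 0.001 or less gave 1.67 in mta, 2 in 35SALKBH10B and 2.83 in Col-0 with flg22, 1.5, 0.333, 0.5 and -0.333 between lines and -0.333 and 1.67 in leaves.

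Over all genes, calls moved by more than 1.5 times in the leaf difference (2974 with DESeq2 and 2899 with the block, against 1833) and in the GMUCT difference for mta (155 with a pseudocount of 0.1, 190 with the block and 540 on recovered reads, against 303). They also moved in uncapped relative to mRNA (29, 122 and 28 with a pseudocount of 0.1, no filter and the block against 51 in mta, and 415 with no filter against 174 in Col-0). The GMUCT library untreated Col-0 replicate 2 held the fewest reads, 3107893, which limits the comparisons with it.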
